A study of Mus musculus with 13 samples.

Results

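The genes described here encode the proteins of the mitochondrial ribosome. They were chosen by symbol: every protein-coding mouse gene whose symbol is Mrpl or Mrps followed by a number and at most one letter from a to d. This took 78 of the 55642 genes in the table, 26 of the small subunit, 51 of the large subunit and Mrps36, which carries the family name but is now known as a subunit of the 2-oxoglutarate dehydrogenase complex (KGD4). All 78 had enough counts to be tested, among 16848 genes tested. The cells were C2C12, a single established line of mouse myoblasts that forms myotubes once differentiation is induced. Before sequencing they received siRNAs that were either nontargeting (control KD) or directed at Ybx3 (YBX3 KD), and RNA was taken 48 h later either from proliferating myoblasts kept in standard medium (0 day) or from differentiating myoblasts after 24 h in medium with horse serum (1 day). At 0 day there were 4 libraries of each siRNA (replicates A to D), and at 1 day there were 2 of control KD (C, D) and 3 of YBX3 KD (B, C, D). The sample titles call them biological replicates without saying what was separate between them, such as the culture or the transfection, so the p-values measure only the spread between these samples.

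Mitochondrial ribosomes translate the few mRNAs encoded in mitochondrial DNA, all of which specify subunits of the respiratory chain or the ATP synthase. Their RNAs come from mitochondrial DNA, but every one of their proteins is encoded in the nucleus, made by cytosolic ribosomes and imported. Some proteins have a counterpart in the bacterial ribosome and others were added during the evolution of mitochondria. Of the 77 subunits here, 46 have a bacterial counterpart and 31 are mitochondria-specific. The 78 genes lie on 17 chromosomes, with the most, 11, on chromosome 11. YBX3 is an RNA-binding protein of the cold shock domain family that acts on the stability and translation of mRNAs.

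Library totals ranged from 33451547 to 71811371 counts, and the 78 genes had between 321 and 8680 counts in each library. Ybx3 itself (chr6:131341810-131365448) was at 265 to 347 CPM in control KD and at 28.7 to 71.5 CPM in YBX3 KD, with no overlap, a log2 fold change of -2.81 (SE 0.17, adjusted p = 5.26e-06). CPM is a gene's count scaled to a common library total. Unless another tool is named, p-values come from the quasi-likelihood test of edgeR, adjusted over all genes tested by the Benjamini-Hochberg method. The 8 myoblast markers, 7 of which were tested, differed widely in level over the libraries. Chrna1 (224 to 386 CPM), Cdh15 (99.6 to 163), Ncam1 (98.2 to 175), Myf5 (31.3 to 73.5) and Des (15.5 to 54.8) made up most of their sum. Myod1 (0.601 to 3.32 CPM), Myog (0.0523 to 3.46) and Pax7 (0 to 0.179, not tested) were low. Over both days Chrna1 was higher with YBX3 KD (log2 fold change 0.37, SE 0.09, adjusted p = 0.0449), while 2.34% of all genes tested passed. The other tested markers had log2 fold changes above 0 and did not pass, among them Myod1 (1.11, adjusted p = 0.0726) and Ncam1 (0.29, adjusted p = 0.0963). The summed level of the 8 markers was 564 to 669 CPM in control KD and 717 to 812 CPM in YBX3 KD at 0 day. At 1 day it was 533 to 598 against 593 to 686 CPM. The 3 fibroblast markers summed to 42.5 to 75.3 CPM in control KD and 29.9 to 60.4 CPM in YBX3 KD at 0 day, and to 48.7 to 64.4 and 34.9 to 81.2 CPM at 1 day. The markers of adipocytes, endothelial cells, leukocytes and epithelium, 3 each, summed to at most 0.176, 1.46, 1.57 and 7.002 CPM in any library, with Adgre1 and Epcam at 0 throughout. The part of these markers in the results below was not tested. In RNA from whole cultures, a lower share of a kind of cell and less RNA in each cell cannot be told apart.

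To show what these genes share in sequence, the promoters were searched for 4 short motifs known from nuclear genes for mitochondrial proteins. The window ran from 250 bases before to 50 bases after the start of the canonical transcript, and both strands were read. The core bound by ETS factors such as GABPA, CCGGAAG, was present in 24 of the 78 promoters (30.8%), against 15.2% of the promoters of 13111 tested protein-coding genes. The YY1 motif AAGATGGC was present in 6 (7.69%, against 3.46%), the E-box CACGTG in 5 (6.41%, against 9.69%) and the NRF1 motif, whose 10 letters are the capitals of the Mrpl9 line below, in 1 (1.28%, against 1.75%). No motif contains another, and a match describes the sequence only. The windows below are those of 4 of the 5 genes with the smallest p-values after YBX3 KD (Mrps21, Mrpl27, Mrps35, Mrpl58), shown because they hold the ETS core, of the gene with the highest fold change (Mrpl33) and of the only gene with the NRF1 motif (Mrpl9). The remaining gene of these 5, Mrps28, held none of the motifs, and of the 12 genes called in the fit with the replicate block described below, 6 held the ETS core and 6 did not. The windows are read 5′ to 3′ on the strand of the gene in GRCm39, and the capitals mark the motif or its reverse complement.

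Mrps21, ETS core, chr3:95778790-95778819, minus strand: cgtagcttccgCTTCCGGtccgcagagacc
Mrps35, ETS core, chr6:146944224-146944253, plus strand: caggttacacaCTTCCGGtcccgccccctc
Mrpl27, ETS core, chr11:94544551-94544580, plus strand: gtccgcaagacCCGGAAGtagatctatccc
Mrpl58, ETS core, chr11:115294550-115294579, plus strand: ctggcggaccgCCGGAAGagtgagcaccgg
Mrpl33, ETS core, chr5:31771281-31771310, plus strand: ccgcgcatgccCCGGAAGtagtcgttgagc
Mrpl9, NRF1, chr3:94350605-94350634, plus strand: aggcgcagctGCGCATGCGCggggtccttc

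In Mrpl27 and Mrpl58 the first motif base lay 22 and 10 bases before the transcript start, and Mrpl58 had another match 5 bases after it. In Mrps21, Mrps35, Mrpl33 and Mrpl9 it lay 23, 9, 9 and 21 bases after the start. The 24 genes with the ETS core had a median log2 fold change after YBX3 KD of -0.13, and the other genes one of -0.12. A protein-coding gene on the opposite strand that starts at most 1000 bases upstream and points away was found for 14 of the 78 genes (17.9%). Of tested protein-coding genes, 7.68% had one. Mrpl46 and Mrps11, of the large and the small subunit, start 30 bases apart. Mrps12 starts 129 bases from Sars2, the mitochondrial seryl-tRNA synthetase, and Mrpl43 starts 56 bases from Twnk, the helicase that replicates mitochondrial DNA. The transcripts were short, with a median canonical length of 1812 bases against 3431 bases in tested protein-coding genes.

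The 78 mRNAs were of middling to high abundance. By the mean over all 13 libraries, 73 were above the median CPM of all genes tested. In control KD at 0 day their level was divided by the length of the canonical transcript. It ranged from 3.61 to 102 CPM per kb with a median of 20.1, against 8.30 in tested protein-coding genes. The small and the large subunit had medians of 18.5 and 20.6 CPM per kb. Of the 78 genes, 51 were within 2 times of the median level per length. The highest was Mrpl42, a mitochondria-specific protein of the large subunit, at 102 ± 18 CPM per kb (SD, n = 4), followed by Mrps21 at 71.7 ± 7.3, Mrpl13 at 69.4 ± 12, Mrpl33 at 64.1 ± 3.8 and Mrpl20 at 62.9 ± 12. The lowest were Mrpl55 at 3.61 ± 0.42, Mrpl48 at 3.75 ± 0.089, Mrps25 at 4.42 ± 1.0, Mrpl1 at 4.44 ± 0.36 and Mrps31 at 4.54 ± 0.73 CPM per kb. In 72 of the 77 neighbouring places of this order, the difference was smaller than the larger of both SDs, so the order of neighbours is not resolved. The order also depends on the length used, since dividing by the union of all exons of a gene moved Mrpl42 to 11.1 CPM per kb and Mrpl33 to 3.23 (Spearman's rho of both orders 0.633 across the 78 genes).

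**Figure D1:**
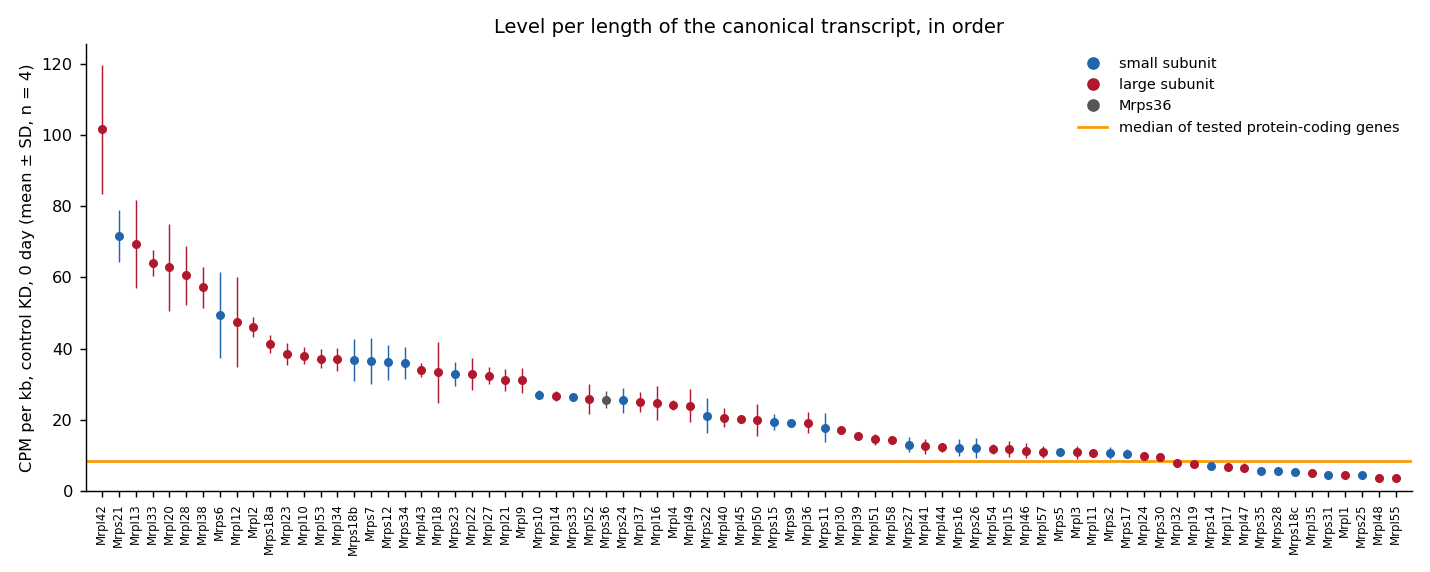
Level of each of the 78 mRNAs in control KD at 0 day, in CPM per kb of canonical transcript (mean ± SD of 4 libraries), in descending order, with blue for the small subunit, red for the large subunit and grey for Mrps36. The orange line is the median of tested protein-coding genes (8.30), and most of the 78 genes lie above it.

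The genes varied together from library to library. Each gene's deviations of log2 CPM from its group means were set against the mean deviation of the other 77 genes over the 13 libraries. Pearson's r was above 0.8 for 59 genes, with a median of 0.93, a description over libraries that share depth and scaling. It was below 0 for 5 genes, among them Mrps21 (-0.29) and Mrpl24 (-0.50), and it was 0.09 for Mrpl27. The SD of log2 CPM within groups ranged from 0.06 for Mrpl14 to 0.41 for Mrpl18, with a median of 0.20. Replicate D stood apart in this respect. It was the lowest library of its group for 62 of the 78 genes in control KD at 0 day (38.3% of all genes tested), for 60 in YBX3 KD at 0 day (33.6%), for 65 in YBX3 KD at 1 day (40.9%) and for 72 in control KD at 1 day (50.6%, of 2 libraries). The results are therefore also given without replicate D.

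The summed level of the 78 mRNAs was lower with YBX3 KD than with control KD in 5 of the 6 pairs of libraries of the same replicate and day and nearly equal in the other, and the groups overlapped. In control KD at 0 day it was 3085, 3289, 3277 and 2551 CPM in replicates A to D, and at 1 day 3402 and 2850 CPM in C and D. In YBX3 KD it was 2813, 3058, 2895 and 2549 CPM in A to D at 0 day, and 3323, 2777 and 2304 CPM in B to D at 1 day. Over both days the mean sum in control KD was 3076 ± 322 CPM (SD, n = 6). The mean in YBX3 KD was 2817 ± 331 CPM (SD, n = 7), a difference smaller than either SD. At 0 day replicate D of both siRNAs had nearly the same sum, and as a share of all counts, without scaling, the genes were at 0.247% in control KD and 0.259% in YBX3 KD in this pair.

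**Figure D2:**
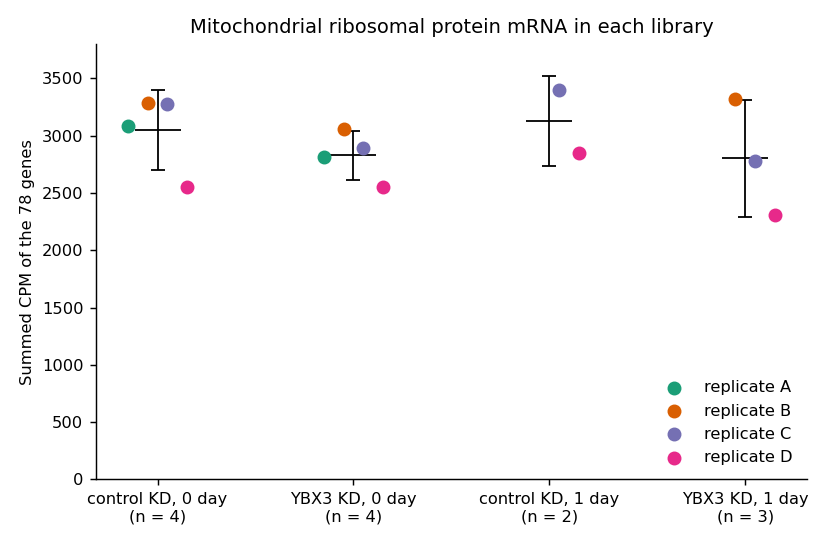
Summed CPM of the 78 mRNAs in each library, by siRNA and day, with one colour for each replicate letter and the mean ± SD of each group in black. Replicates A to C of YBX3 KD at 0 day lie below the same letters of control KD, replicate D is nearly equal in both, and the 1 day libraries of C and D are lower after YBX3 KD.

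To ask which genes depend on YBX3, both siRNAs were compared over all 13 libraries with the day as a term. The mRNAs of the mitochondrial ribosome were lower by a small amount nearly throughout. The log2 fold change was below 0 for 74 of the 78 genes (94.9%), against 49.9% of all genes tested, and its median was -0.12, against 0.00. It ranged from -0.33 (Mrpl12) to 0.17 (Mrpl33), so that no gene reached the fold of 1.3 used by the study. Single genes mostly did not pass the test: Mrps21 was the only 1 with an adjusted p under 0.05 (1.28% of the 78 genes, against 2.34% of all genes tested and 1.04% called lower). None passed the study's thresholds of a fold above 1.3 with an adjusted p under 0.001 (0.113% of all genes tested). At an unadjusted p under 0.05 there were 12 genes, all lower (15.4%, against 6.93% of all genes tested called lower and 15.6% called in either direction). The share called at adjusted p under 0.05 was thus near the background, and the share below 0 was not. The genes varied together between libraries (median r 0.93), so their 78 signs are not independent of each other. In the pair of replicate D at 0 day only 37 of the 78 were lower. The shared direction was not tested.

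The subunits had similar counts. In the small subunit 24 of 26 genes were lower, with a median log2 fold change of -0.12, and in the large subunit 49 of 51, also with a median of -0.12. Genes with a bacterial counterpart (44 of 46 lower, median -0.13) and mitochondria-specific genes (29 of 31 lower, median -0.11) were also alike in these values. The difference between subunits or classes was not tested.

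**Figure D3:**
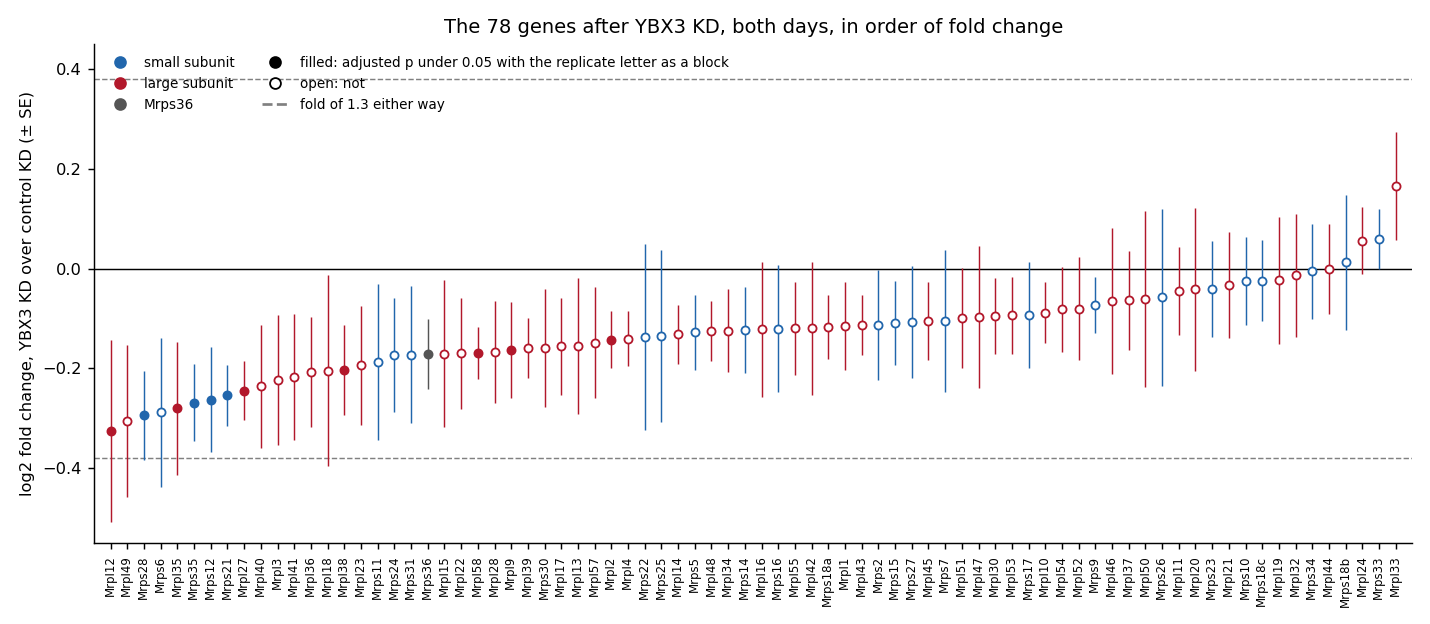
Log2 fold change of YBX3 KD over control KD (both days) for each of the 78 genes with its SE, in ascending order, coloured by subunit. Filled points passed an adjusted p of 0.05 in the fit with the replicate letter as a block, dashed lines mark a fold of 1.3, and all but 4 points lie below 0.

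Mrps21 (ENSMUSG00000054312, chr3:95766069-95778879, minus strand) encodes bS21m, a small protein of the small subunit with a bacterial counterpart. It was at 33.9, 42.2, 40.6 and 42.6 CPM in control KD at 0 day (A to D) and at 39.1 and 40.4 CPM at 1 day (C and D). In YBX3 KD it was at 32.6, 32.2, 31.7 and 34.2 CPM at 0 day and at 34.3, 34.2 and 35.2 CPM at 1 day (B to D). In 3 of the 7 YBX3 KD libraries it was below all controls, and the groups overlapped only because of control KD replicate A at 0 day, the lowest of the controls. Mrps21 fell to 84.1% of control, a log2 fold change of -0.25 (SE 0.06, adjusted p = 0.0491). It was lower in each of the 6 pairs of libraries of the same letter and day. With 1 library left out, the call held only without control KD replicate A or D at 0 day; without each of the other 11 libraries its adjusted p lay between 0.0515 and 0.116.

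Mrpl27 (chr11:94544584-94552984, plus strand) encodes bL27m, whose bacterial counterpart reaches towards the peptidyl transferase centre. Its level was 24.0, 27.1, 25.3 and 22.8 CPM in control KD at 0 day, 24.8 and 26.1 CPM at 1 day, 22.4, 20.4, 19.5 and 22.1 CPM in YBX3 KD at 0 day, and 20.6, 21.9 and 21.1 CPM at 1 day. The highest of the 7 libraries with YBX3 KD was thus below the lowest of the 6 controls, which held for no other gene of the 78 (1.28%, against 1.08% of all genes tested). The log2 fold change was -0.24 (SE 0.06, adjusted p = 0.0532), and with DESeq2 the adjusted p was 0.000322. Its exons share 84 bases with Eme1 on the opposite strand. A pseudogene, Mrpl27-ps, had 21 to 78 counts of its own in each library, so that the split of reads between both copies is uncertain. The sums of gene and pseudogene also did not overlap, at 23.5 to 28.0 CPM in control KD and 20.3 to 22.8 CPM in YBX3 KD.

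The pseudogenes of Mrpl23 and Mrpl48 took more reads. Mrpl23-ps1 was at 0 in all 6 control KD libraries and in 3 of the 7 YBX3 KD libraries, and at 586, 281, 277 and 284 counts in the other 4 (B and C at 0 day, B and C at 1 day), which is 4.89 to 8.15 CPM. Mrpl23 (uL23m, near the peptide exit) was at 17.7 to 24.2 CPM in these 4 libraries and at 25.8 to 27.7 CPM in the other YBX3 KD libraries, against 23.5 to 28.6 CPM in control KD. Gene and pseudogene together had a mean of 26.01 ± 2.06 CPM (SD, n = 6) with control KD, and of 26.62 ± 1.58 CPM (SD, n = 7) with YBX3 KD, so that Mrpl23 counts among the 74 lower genes only with its pseudogene left out. Mrpl48-ps had 188 to 399 counts in each library, and with Mrpl48 the mean sum was 22.5 ± 1.02 CPM (SD, n = 6) for control KD, and 20.2 ± 1.05 CPM (SD, n = 7) for YBX3 KD. Of the 78 genes, 22 share exonic bases with another gene, 20 of them on the opposite strand.

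The other genes of the small subunit with the smallest p-values were Mrps35 and Mrps28. Mrps35 (mS35, chr6:146944205-146975489, plus strand), a mitochondria-specific protein, was at 21.6 to 26.9 CPM in control KD and 17.9 to 24.3 CPM in YBX3 KD, where 6 of the 7 libraries were below all controls. Its log2 fold change was -0.27 (SE 0.08, adjusted p = 0.0969). Mrps28 (bS1m, chr3:8865093-8988978, minus strand) was at 14.3 to 18.2 CPM in control KD and 11.4 to 15.1 CPM in YBX3 KD, where 4 of the 7 libraries were below all controls, with a log2 fold change of -0.29 (SE 0.09, adjusted p = 0.115). Both were lower in each of the 6 pairs, and neither passed the test.

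In the large subunit, Mrpl58 and Mrpl39 came next after Mrpl27. Mrpl58 (mL62, chr11:115294556-115303502, plus strand), a peptidyl-tRNA hydrolase that frees stalled mitochondrial ribosomes, was at 35.4 to 40.2 CPM in control KD and at 31.5 to 35.7 CPM in YBX3 KD, with only replicate B at 1 day reaching into the control range. Its log2 fold change was -0.17 (SE 0.05, adjusted p = 0.121). Mrpl39 (mL39, chr16:84502276-84533793, minus strand), a mitochondria-specific protein, was at 36.2 to 40.7 CPM in control KD and 30.9 to 38.1 CPM in YBX3 KD, a log2 fold change of -0.16 (SE 0.06, adjusted p = 0.208).

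Only 4 genes had a log2 fold change above 0, and none of them passed the test. Mrpl33 (bL33m, chr5:31754279-31837542, plus strand) was at 45.3, 51.0, 46.2 and 45.2 CPM in control KD at 0 day, 56.3 and 40.0 CPM at 1 day, 52.9, 54.6, 54.0 and 45.9 CPM in YBX3 KD at 0 day, and 69.2, 53.3 and 43.5 CPM at 1 day. It was higher in 5 of the 6 pairs, with a log2 fold change of 0.17 (SE 0.11, adjusted p = 0.512). Mrps33 and Mrpl24, which encodes a protein whose bacterial counterpart initiates assembly of the large subunit, were both at a log2 fold change of 0.06 (adjusted p = 0.682 and 0.739). Mrps18b, one of the 3 relatives of bacterial S18 in mitochondria, had one of 0.01 whose sign turned in 8 of 22 settings.

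The replicate letters were taken to pair the libraries, which the labels do not state. The same comparison with the letter as a block made more calls among these genes. With the block, 12 of the 78 genes had an adjusted p under 0.05, all lower (15.4%, against 9.78% of all genes tested and 4.38% called lower). The genes that fell in this fit were Mrps35, Mrps21, Mrps12 and Mrps28 of the small subunit, Mrpl35, Mrpl27, Mrpl9, Mrpl12, Mrpl58, Mrpl38 and Mrpl2 of the large subunit, and Mrps36, with log2 fold changes from -0.15 for Mrpl2 to -0.36 for Mrpl12. The smallest adjusted p was 0.0136 for Mrps35, at a log2 fold change of -0.29 (SE 0.06). All 12 also passed with DESeq2 and the block, which called 27 of the 78 genes, all lower (34.6%, against 10% of all genes tested called lower). DESeq2 without the block called 5, all lower (6.41%, against 3.52%). Without replicate D and without the block, 13 of the 78 genes passed, all lower (16.7%, against 12.5% of all genes tested and 6.68% called lower), and 7 of them were among the 12. The log2 fold change was below 0 in each of the 22 settings tried for 62 of the 78 genes.

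Mrpl12 and Mrps12, both among the 12, have roles at the core of translation. Mrpl12 (bL12m, chr11:120375430-120381396, plus strand) forms the stalk that engages the translation factors, and it was at 126, 127, 140 and 70.5 CPM in control KD at 0 day, 137 and 94.1 CPM at 1 day, 90.1, 108, 103 and 75.4 CPM in YBX3 KD at 0 day, and 115, 93.0 and 60.6 CPM at 1 day. It was lower in 5 of 6 pairs, and the exception was replicate D at 0 day, where control KD was itself lowest. Mrps12 (uS12m, chr7:28439066-28441680, minus strand), part of the decoding centre, was at 22.4 to 30.4 CPM in control KD and 17.8 to 27.1 CPM in YBX3 KD. Its log2 fold change with the block was -0.30 (SE 0.07, adjusted p = 0.0325).

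The 6 pairs of control KD and YBX3 KD libraries of the same letter and day show how the difference varied between replicates. The median log2 ratio over the 78 genes was -0.12 in pair A, -0.12 in B, -0.18 in C and 0.01 in D at 0 day, and -0.29 in C and -0.30 in D at 1 day. The number of genes lower after YBX3 KD was 67, 64, 70 and 37 of 78 in pairs A to D at 0 day, and 76 and 69 in pairs C and D at 1 day. Replicate D at 0 day was thus the only pair in which the genes were not mostly lower. The median over all genes tested stayed between -0.01 and 0.03 in the 6 pairs. Of the 78 genes, 23 were lower in all 6 pairs (29.5%, against 7.97% of all genes tested), and 59 in at least 5 (75.6%, against 24.8%).

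**Figure D4:**
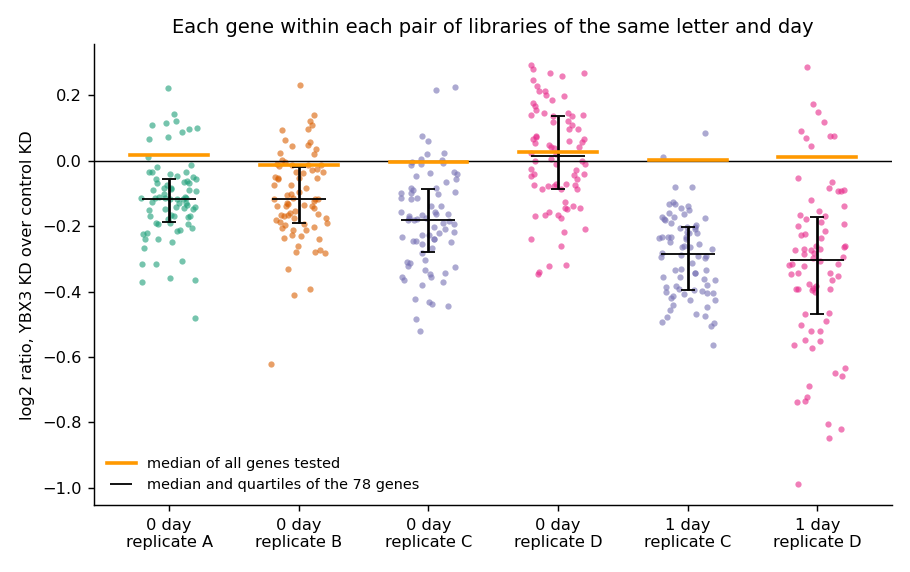
Log2 ratio of YBX3 KD over control KD for each of the 78 genes (points) within each pair of libraries of the same replicate letter and day, with the median and quartiles in black and the median of all genes tested in orange. The points lie mostly below 0 in 5 of the 6 pairs and are spread around 0 in replicate D at 0 day.

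Within a day, in subsets of the same libraries, most genes were again lower and no single gene passed with edgeR. At 0 day 67 of the 78 genes were lower (85.9%, against 50.8% of all genes tested), with a median log2 fold change of -0.11. None had an adjusted p under 0.05 with edgeR (0.427% of all genes tested), and 5 had an unadjusted p under 0.05, all lower (6.41%, against 5.38% called lower). DESeq2 called 3, all lower (3.85%, against 1.8% called lower), and with the block 4 (5.13%, against 5.2%). At 1 day 73 were lower (93.6%, against 47.8% of all genes tested), with a median of -0.15. None had an adjusted p under 0.05 with edgeR (0.0712% of all genes tested) or DESeq2, and 3 had an unadjusted p under 0.05, all lower (3.85%, against 3.7% called lower). DESeq2 with the block called 24 at 1 day, all lower (30.8%, against 11.7% called lower). The difference of the effect between the days passed for no gene with edgeR or DESeq2, at an adjusted p under 0.05 (0 of all genes tested with edgeR), and 1 gene had an unadjusted p under 0.05 (1.28%, against 2.64%). This difference, 1 day minus 0 day, was below 0 for 52 genes (66.7%, against 50.1% of all genes tested), with a median of -0.06.

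Between proliferating and differentiating myoblasts, no single gene passed in the fit over all 13 libraries, and the balance of directions depended on the fit. Replicate A had no library at 1 day, and replicate B had none of control KD. From 0 day to 1 day, over both siRNAs, 38 genes were higher and 40 lower (51.3%, against 49.3% of all genes tested), with a median log2 fold change of 0.00 on a range from -0.16 (Mrps6) to 0.17 (Mrps24). No gene had an adjusted p under 0.05 with edgeR (0 of all genes tested) or with DESeq2, and none had an unadjusted p under 0.05 (2.83% of all genes tested). Mrps24 (uS3m, of the small subunit) was at 21.6 to 30.01 CPM in control KD at 0 day and 28.95 and 29.4 CPM at 1 day. In YBX3 KD it was at 20.8 to 25.04 CPM at 0 day and at 34.999, 22.2 and 22.5 CPM in replicates B, C and D at 1 day, so that only replicate B was high. The smallest unadjusted p-values of this edgeR test among genes higher at 1 day, 0.166 for Mrps24 and Mrps34 and 0.186 for Mrps9, belong to the small subunit. Mrpl2, Mrpl43 and Mrpl48 led in the large subunit, with log2 fold changes of 0.08, 0.08 and 0.05. Among genes lower at 1 day, Mrps6, Mrps18b and Mrps2 led in the small subunit (-0.16, -0.08 and -0.05) and Mrpl46, Mrpl53 and Mrpl54 in the large subunit (-0.08, -0.06 and -0.04). The steps from 0 day to 1 day within a letter went both ways. Their median over the 78 genes was 0.07 in C and 0.18 in D for control KD, and 0.11 in B, -0.04 in C and -0.15 in D for YBX3 KD. Only 2 control KD and 3 YBX3 KD libraries represent 1 day, and with the block or without replicate D the split became 62 higher and 16 lower or 70 higher and 8 lower.

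The genes around the mitochondrial ribosome were examined by lists in the same comparison of YBX3 KD with control KD over both days. Of 5 further mitoribosomal proteins with other symbols, 4 were lower, with a median log2 fold change of -0.16. Dap3, the GTP-binding protein mS29 of the small subunit, was at a log2 fold change of -0.19 (adjusted p = 0.0726, and 0.0242 with the block), and Gadd45gip1, the large subunit protein mL64, one of -0.24 (adjusted p = 0.173, and 0.0391 with the block). Of the factors that assemble the ribosome, 20 of 29 were lower, with a median of -0.04. Among them Ddx28, an RNA helicase needed for the large subunit, stood at 11.8 ± 0.674 CPM (SD, n = 6) with control KD. It fell to 9.35 ± 0.483 CPM (SD, n = 7) after the knockdown, a log2 fold change of -0.34 (SE 0.06, adjusted p = 0.0158). All its YBX3 KD libraries were below all controls, which held for 1.08% of all genes tested. Ddx28 was the only 1 of the 29 assembly factors that passed, while 2.34% of all genes tested passed and 1.04% were called lower.

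Translation factors were lower for 11 of 16 genes (median -0.05), and mitochondrial aminoacyl-tRNA synthetases for 9 of 17 (median -0.01), with none passing in either list without the block. The log2 fold change of Tufm, the elongation factor that brings tRNAs to the ribosome, was -0.23 (adjusted p = 0.206, and 0.0260 with the block), that of Oxa1l, which inserts new proteins into the inner membrane, -0.19 (0.157), and those of the synthetases Fars2 and Wars2 -0.34 (0.0960, and 0.0295 with the block) and -0.19 (0.179). Mitochondrial transcription and RNA processing had 15 of 20 genes lower (median -0.05), with Hsd17b10 at -0.21 and Prorp at -0.14, both subunits of the RNase that cuts mitochondrial transcripts, and none passed. Of 9 regulators of mitochondrial gene programmes, 5 were lower and none passed without the block. Nrf1 and Gabpa, whose motifs were searched above, had log2 fold changes of -0.20 (adjusted p = 0.265, and 0.0188 with the block) and -0.12 (adjusted p = 0.295).

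The mRNAs that mitochondrial ribosomes translate were higher on average with YBX3 KD, and the groups overlapped. Their summed level was 13649.6 to 28463.5 CPM in control KD and 26756.5 to 43044.7 CPM in YBX3 KD. All 13 mRNAs encoded in mitochondrial DNA had a log2 fold change above 0, with a median of 0.57. Their signs may not be independent of each other, and the shared direction was not tested. Without the block 2 passed, and with it 8 (mt-Nd4, mt-Nd4l, mt-Cytb, mt-Nd5, mt-Nd3, mt-Nd2, mt-Co3 and mt-Nd1), all higher. Of all genes tested, 2.34% passed without the block and 9.78% with it, in either direction. The 2 that passed in both fits were mt-Cytb and mt-Nd4. In the fit without the block mt-Cytb, of respiratory complex III, had a log2 fold change of 0.57 (SE 0.12, adjusted p = 0.0334). Its mean was 2784 ± 708 CPM (SD, n = 6, 1743 to 3821) in control KD and 3954 ± 953 CPM (SD, n = 7, 3044 to 5684) in YBX3 KD. For mt-Nd4, of complex I, the log2 fold change was 0.68 (SE 0.15, adjusted p = 0.0375). The means were 1896 ± 520 CPM (1176 to 2646) in control KD and 2916 ± 812 CPM (2026 to 4445) in YBX3 KD. The proteins of the cytosolic ribosome were lower for 74 of 75 genes, with a median of -0.14. Of the 75, 2 passed (Rpl4 and Rpl7a), or 4 with the block (also Rpl8 and Rpl23a), all lower. Of all genes tested, 1.04% were called lower without the block and 4.38% with it. By day, of the 75 cytosolic genes 74 were lower at 0 day (median -0.23) and 28 at 1 day (median 0.04), while of the 78 mitochondrial genes 67 and 73 were. None of the 75 passed the edgeR test of the difference between days, where 9 had an unadjusted p under 0.05 (2.64% of all genes tested did). The cytosolic list was not compared with the mitochondrial one by a test.

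**Figure D5:**
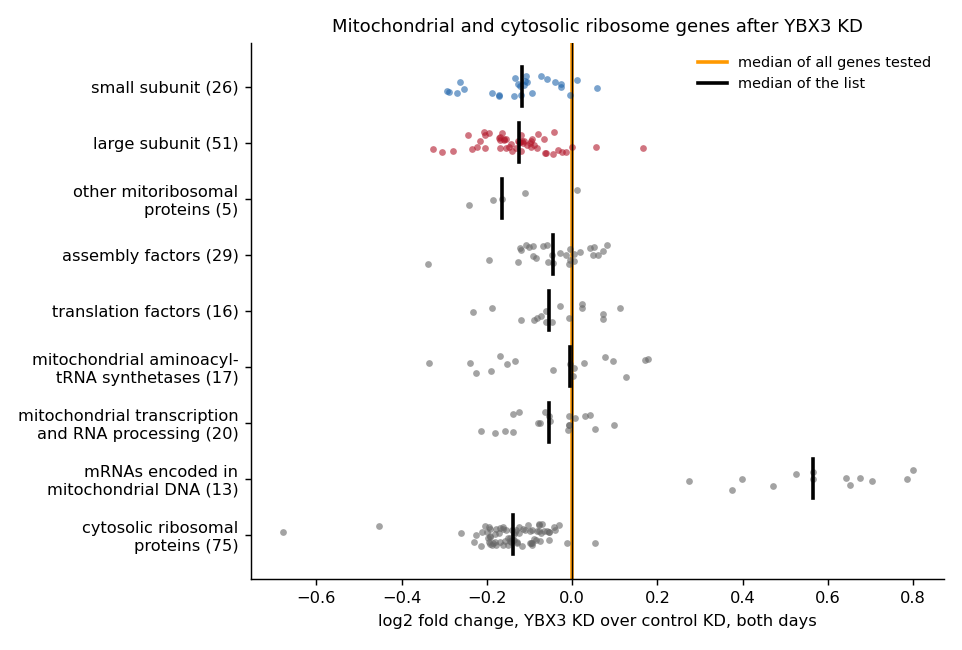
Log2 fold change of YBX3 KD over control KD (both days) of each tested gene (points) in the lists named at the left, with the number of genes in parentheses, the list's median in black and the median of all genes tested in orange. The subunits of the mitochondrial ribosome lie mostly left of 0 (medians -0.12), as do the cytosolic ribosomal proteins (-0.14), and the mRNAs encoded in mitochondrial DNA lie right of it (0.57).

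To see whether these mRNAs could pair with the siRNAs themselves, their 3′ UTRs were searched for matches to the seed (bases 2 to 8 of the antisense strand) of each of the YBX3 siRNAs listed by the study. Which of them were in the sequenced cells, alone or together, is not given in the sources used here. For 1 of the 4, siRNA 07, the listed antisense strand does not complement the listed sense strand, so its seed is uncertain. A match to any of the other 3 was found in 10 of the 78 3′ UTRs (12.8%), against 16.4% of 12933 tested genes, and with siRNA 07 included in 13 (16.7%, against 20.4%). A match to siRNA 08 was found in 4 (5.13%, against 6.84%), namely Mrpl46, Mrpl54, Mrps14 and Mrps28. Mrps28 is shown because it is the only 1 of the 4 that passed with the block. The antisense strand is given 5′ to 3′ as RNA with its seed in capitals, and the site 5′ to 3′ on the strand of the gene in GRCm39, with the match in capitals.

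siRNA 08, antisense: aUACUUGCguggguuguuu
Mrps28, chr3:8866855-8866883, minus strand: cactgacttagGCAAGTAtagatgcatcc

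The median log2 fold change after YBX3 KD was -0.15 for the 10 genes with a match to any of the 3 seeds and -0.12 for the 68 without. With siRNA 07 included it was -0.12 for the 13 genes with a match and -0.12 for the 65 without. The seeds of the nontargeting siRNAs 02, 03 and 04 had a match in 22, 22 and 24 of the 78 3′ UTRs. These are 28.2%, 28.2% and 30.8%, against 24.9%, 29.5% and 31.8% of the 12933 tested genes. Nontargeting siRNA 01 had a match in 0 of the 78 (0.65% of tested genes). The fold changes were not compared by these matches.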

How the data were processed

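RNA of C2C12 myoblasts was sequenced as 13 libraries (control KD: 4 at 0 day, 2 at 1 day; YBX3 KD: 4 at 0 day, 3 at 1 day). The deposited values are estimated counts per gene, which the authors made from stranded mRNA libraries with Salmon (its version is not given in the sources used here) on GRCm39 with GENCODE M30. They were read as whole numbers here. Gene names, positions, lengths and promoter windows came from GENCODE vM39 on GRCm39, which held 54969 of the 55642 gene IDs. All columns of sample values were used, and no pair of libraries was a duplicate.

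Genes with low counts were removed with filterByExpr over the 4 groups, counts were scaled by TMM, and edgeR (version 4.0.16, R 4.3.3) fitted a quasi-likelihood model to all 13 libraries, with siRNA and day as terms for the effects over both days or of the day, and with 1 coefficient per group for the effects within a day. All p-values were adjusted over all genes tested by the Benjamini-Hochberg method. A gene was called at an adjusted p under 0.05, and also by the thresholds of the study (fold above 1.3, adjusted p under 0.001). SEs were derived from the F statistic. Scripts were tested on simulated data. Ratios within pairs of libraries over all genes used a pseudocount of 0.1 CPM.

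The letters of the replicates in the labels were taken as the pairing, because the deviations of same-letter libraries from their group means correlated above 0.1 in 16 of 16 pairs (0.117 to 0.73, median 0.338). This held for 11 of 46 pairs of different letters (median -0.146). Deviations within a group balance each other, so the correlations of same and different letters are not independent. The sources used here do not say what libraries of the same letter shared, so the pairing remains an assumption. The numbers in the sample titles disagree with the letters at 1 day, and 8 of 16 pairs of the same number were above 0.1 (median 0.0931).

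Alternatives were DESeq2 (version 1.42.0), the letter as a block with either tool, other scalings, no filter, only the groups compared, each library or replicate D left out, and union exon lengths. Named genes were those called, the 3 with the smallest p in each direction and subunit for the knockdown and the day, and the 5 highest and lowest levels per length. From each other list, genes among the 2 smallest p for the knockdown were named, and the day results of these lists are not given. Mrpl12, Mrps12, Mrpl23 with its pseudogene and the other genes called with the block were named after their values were seen. The 78 genes and all lists were chosen with earlier results of these data known.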

Additional observations from a re-analysis of the deposited data

Results flagged for a closer look

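In the groups of 4 libraries, 58 sets of values were searched for 1 library far from the others by Dixon's ratio of its gap to the whole range, and 5 were found. Chance alone flags about 1 in 20 such groups, but the genes varied together between libraries, so the sets are not independent. In control KD at 0 day, replicate D was low for Mrpl42 (57.97 CPM, others 82.98 to 87.37), Mrps18b (36.24 CPM, others 50.32 to 52.45) and Mrps25 (17.93 CPM, others 29.2 to 31.15). In YBX3 KD at 0 day, replicate D was low for Mrps31 (9.375 CPM, others 13.45 to 14), and replicate B was high for Mrpl53 (25.69 CPM, others 22.34 to 22.68). The library of control KD replicate D at 0 day also had the smallest total count.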

How the results depend on the processing

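The median log2 fold changes of the 78 genes after YBX3 KD over both days stayed below 0 in all alternatives run, and 62 genes were lower in each of the 22 settings. Counts of single genes moved more. For YBX3 KD over both days, where edgeR called 1 gene, DESeq2 called 5, relative log expression factors 2, library totals 0 and no filter 0. The replicate block by letter called 12, DESeq2 with the replicate block 27, and the fit without replicate D 13. A robust prior for the dispersion, chosen after seeing the data, called 0 (Mrps21 at an adjusted p of 0.0515). Leaving out 1 library called 0 to 3. At 0 day, where edgeR called 0, DESeq2 called 3 and DESeq2 with the replicate block 4. At 1 day DESeq2 with the replicate block called 24. No other count of called genes moved under the replicate block.

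The log2 fold change of Mrps18b after YBX3 KD turned to -0.03042 with the replicate block, -0.03672 with DESeq2 and the block, and -0.02615 without replicate D, and ranged from -0.05821 to 0.07873 with 1 library left out. For the day, Mrpl46 turned to 0.0006946 without replicate D and ranged from -0.1978 to 0.00558 with 1 library left out, Mrpl53 turned to 0.01222 and ranged from -0.1091 to 0.009476, and Mrps2 ranged from -0.1113 to 0.009009. The cause was not tested. By union exon length, 9 of the 10 named levels per length moved by more than their SD. Each gene had 321 to 8680 counts in a library, and the median SE of the log2 fold change after YBX3 KD was 0.10, so that most single changes of the size of the median could not be resolved.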
